A study of Caenorhabditis elegans with 2 samples.

Results

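The 6 vitellogenin genes of Caenorhabditis elegans, vit-1 to vit-6, and rme-2, which encodes the yolk receptor of oocytes, were examined for RNA polymerase II. They were chosen by name for their place in the yolk pathway, with earlier results of these data known. They make up 7 of 19985 protein-coding genes in the annotation. For each gene, every peak summit in the gene body or within 1000 bp of either end was taken from the deposited peak lists. AMA-1, the biggest subunit of RNA polymerase II and the one that holds its active site, had been immunoprecipitated with its chromatin and sequenced (ChIP-seq) in 2 biological replicates of whole young adults, a pool of males and females of unknown exact age. Both replicates are of strain YL503, in which the unc-119(ed3) mutation is covered by unc-119(+) on the insertion vrIs110. That insertion also expresses AMA-1 with GFP and FLAG at its C terminus under the pie-1 promoter, which is active in the germline. The replicates form 1 group with no other condition, so no difference between conditions was tested, and no p-value is given. Where the antibody bound the tagged protein alone, tagged AMA-1 in the germline and untagged AMA-1 elsewhere would not be read alike, and the sources used here do not say which was bound.

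Vitellogenins are large lipid-carrying proteins made in the intestine of adult hermaphrodites and secreted into the body cavity. RME-2, a member of the low-density lipoprotein receptor family on the surface of growing oocytes, takes them up by clathrin-mediated endocytosis, and they feed the embryo. The genes vit-3, vit-4 and vit-5 encode near-identical YP170 proteins, vit-1 and vit-2 encode a second YP170 pair, and the vit-6 product is cleaved into YP115 and YP88. The intestine therefore transcribes the ligand genes and the germline transcribes the receptor gene. In whole worms, fewer cells of a type and less polymerase per cell cannot be told apart.

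The genes lie on 2 chromosomes (WBcel235, the assembly that ce11 names). On X, vit-5 spans 3403471 to 3408603 on the forward strand, and vit-4 (3558769 to 3563965) and vit-3 (3567355 to 3572549) follow on the reverse strand with 3389 bp between them. Also on X and on the forward strand are vit-2, from 5101042 to 5106169, and vit-1, from 7727889 to 7733168. On chromosome IV, vit-6 spans 8261157 to 8266459 and rme-2 spans 5470026 to 5473174, both on the forward strand. The vit genes are from 5128 to 5303 bp long with 5 or 6 exons, and rme-2 is 3149 bp long with 7.

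The vit promoters share short elements, which are shown to describe the ligand genes by sequence. TGTCAAT and CTGATAA, known as the vitellogenin promoter elements VPE1 and VPE2, were searched on both strands from 250 bp before to 50 bp after each annotated start. Since these elements are named for vit promoters, finding them there is not a test. TGTCAAT was found in 6 of 6 vit promoters and in 5.77% of 19973 nuclear protein-coding promoters. CTGATAA, a form of the GATA sequence that intestinal GATA factors such as ELT-2 bind, was found in 5 of 6 vit promoters, all but that of vit-3, and in 8.15% of all promoters. The shorter TGATAA, which CTGATAA contains, was in 6 of 6 and in 30.2% of promoters. TTGACA, whose other strand lies within TGTCAAT, was in 6 of 6 and in 19.6%. None of these 4 was found in the rme-2 window. Most promoters lack each of them, and their absence says nothing about the factors that bind at rme-2. The TGTCAAT match nearest each vit start is printed on the strand of the gene, with the match in capitals (on the opposite strand in vit-6).
vit-1, chrX:7727763-7727792: tattgagcaacTGTCAATgtgccaaattaa
vit-2, chrX:5100974-5101003: aatcgaacataTGTCAATctttagccgtat
vit-3, chrX:3572581-3572610: agtgcctgccaTGTCAATtaaacacactgg
vit-4, chrX:3564006-3564035: atcgcctgtccTGTCAATtaaacacactgg
vit-5, chrX:3403412-3403441: tgaaggaatagTGTCAATttcagttgcatc
vit-6, chrIV:8260983-8261012: cgcactcaacaATTGACAcctgtctcaatg

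The coding sequences of vit-3 and vit-4 were identical at 4761 of 4809 aligned bases, and vit-5 was 97.7% identical to vit-3 and 97.8% to vit-4. Those of vit-1 and vit-2 were 94.0% identical over 4838 aligned bases. Between these 2 families identity was from 71.4 to 72.3%, and vit-6 was from 64.4 to 66.6% identical to the others. This bears on the peaks, because a read from a repeated stretch cannot be placed in 1 gene.

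The deposited lists are of 2 kinds. A relaxed list, which holds peaks and background, was made from the pooled reads (30000 peaks), from replicate 1 (30000) and from replicate 2 (27106). The thresholded list keeps 732 peaks. Each peak has a signal, the authors' own value for it, which ranks peaks within a list and is not compared between lists. The median signal was 6.89 among pooled peaks, 4.75 among those of replicate 1 and 3.62 among those of replicate 2. The depth of the libraries is unknown, since the files hold no read counts.

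Of the 7 genes, rme-2 carried a thresholded peak and the 6 vit genes carried none. The background is 5.25% of all protein-coding genes with a thresholded summit under the same window, and 2.82% of X genes. A thresholded count of 0 of 6 is too small to be read against these shares. In the pooled relaxed list 4 of 6 vit genes had a summit, against 56.5% of all protein-coding genes, so the share of vit genes lies near the background. Among X genes it was 40.7%, among autosomal genes 58.9%, and among genes as long as the members, from 3149 to 5303 bp, 68.0%. Replicate 1 gave 5 of 6 vit genes, against 61.8% of all genes, 52.5% of X genes and 63.2% of autosomal genes. Replicate 2 gave 4 of 6, against 65.3%, 56.0% and 66.7%. At vit-5 in each relaxed list, and at vit-1 in replicate 1, the only summit lies inside a neighbouring gene. The shares over all genes count such summits too. A summit in a relaxed list is thus common, and the position and signal of the summits carry the comparison below.

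**Figure D1:**
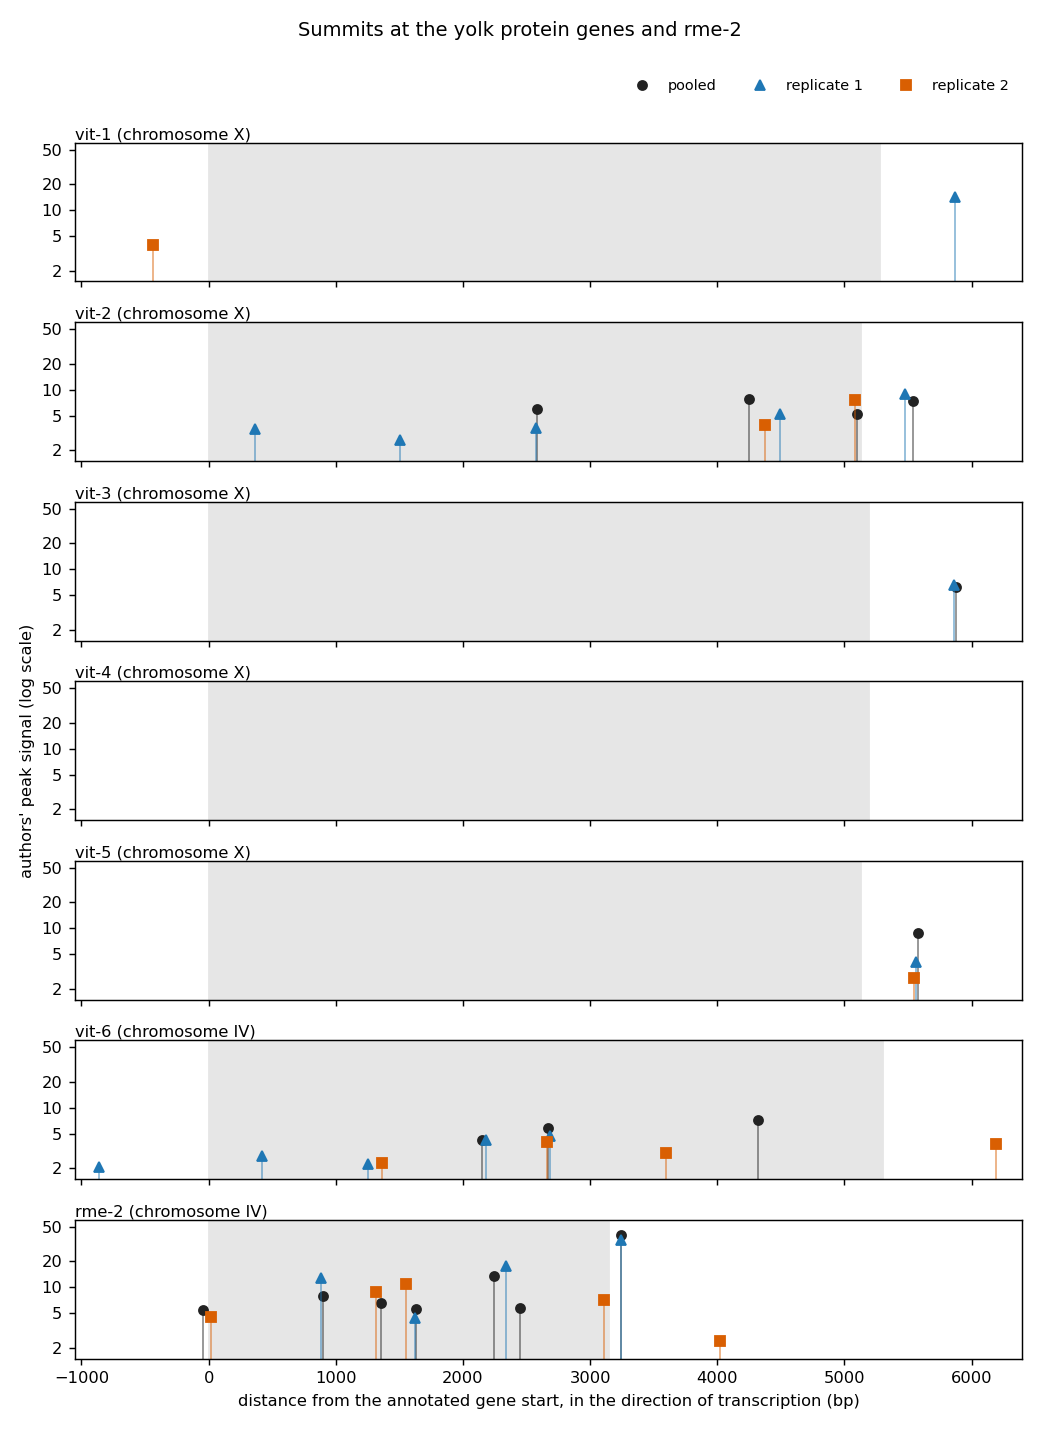
Each panel plots the summits of 1 gene by distance from the annotated start in the direction of transcription (bp) against the authors' signal on a log axis, with the gene body shaded; circles are the pooled list, triangles replicate 1 and squares replicate 2. The summit of 40.5 past the end of rme-2 is the highest of all panels, vit-4 has none, and within the bodies of vit-1, vit-3, vit-4 and vit-5 no summit is marked.

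In the pooled list and replicate 1 the receptor gene rme-2 had its highest summit just past its end, with others in its body, while in replicate 2 the highest lay in the coding sequence. The thresholded peak, at chrIV:5473117-5473420, had its summit 95 bp past the annotated end, in no annotated gene. Its signal was 40.5 in the pooled list, where it ranked 264 of 30000. In replicate 1 the summit lay at the same base, with a signal of 35.7 and rank 134 of 30000. In replicate 2 the nearest summit lay 37 bp before the end, in the 3' UTR, with 7.14 and rank 3143 of 27106. The peak was therefore present in both replicates, and it stood higher among the peaks of replicate 1 than among those of replicate 2. The 30 bases around the pooled summit are given with the summit base in capitals.
rme-2, chrIV:5473254-5473283: tgttacatcactgttTagaacacggataga

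Within the rme-2 body, which codes for the receptor, the pooled list had 5 summits, all in coding exons. The highest of these, 13.7, lay 905 bp before the end. The others were 7.98 at 898 bp after the start, 6.65 at 1354 bp, 5.60 at 1628 bp and 5.76 at 2448 bp. A summit of 5.45 lay 41 bp before the start. In the pooled list each body summit was thus below the one at the end. The start summit was lower still, but only narrowly below the lowest body summit (5.45 against 5.60). The start summit and the body summits of 5.60, 5.76 and 6.65 were below the list median of 6.89, so the order of start and body rests on weak peaks.

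The replicates placed the body summits of rme-2 differently. Replicate 1 had 17.5 at 810 bp before the end, 13.0 at 880 bp after the start and 4.46 at 1619 bp. Replicate 2 had 10.9 at 1553 bp, 8.82 at 1316 bp and 4.61 at 19 bp after the start, and 2.42 at 873 bp past the end, nearest to the gene T11F8.4. In replicate 1 the end summit was the highest of 4, while in replicate 2 the highest of 5 lay inside the coding sequence. Of the 7 pooled summits, 2 had a summit within 150 bp in both replicates, the one at the end and the one at 1628 bp, and each of the others had one in a single replicate. The pooled summits of 13.7 and 5.76, whose peaks overlap, had the same counterpart, the replicate 1 summit of 17.5.

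By its highest summit rme-2 stood 369th of 19985 protein-coding genes by the pooled peaks, 199th by replicate 1 and 1286th by replicate 2. It was thus in the first 6.43% of genes in each list. Genes with as many pooled summits as the 7 of rme-2 made up 5.73% of all genes. Among genes with a summit, the median of the highest signal was 11.3 for the pooled peaks, 7.72 for replicate 1 and 4.98 for replicate 2, and rme-2 was above it in each. The vit genes with a pooled summit were all below it, but vit-1 (14.3) and vit-2 (8.79) were above it in replicate 1, and vit-2 (7.51) in replicate 2. Both of these replicate 1 summits lie inside a neighbouring gene, set-12 for vit-1 and C42D8.9 for vit-2. In replicate 1 the highest summit in the vit-2 body was 5.25, below the median, and vit-1 had none in its body. Among X genes with a summit the pooled median was 8.57, which vit-5 (8.77) exceeded and vit-2 (7.77) and vit-3 (6.24) did not. The vit-5 summit lies inside the neighbouring gene unc-78.

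**Figure D2:**
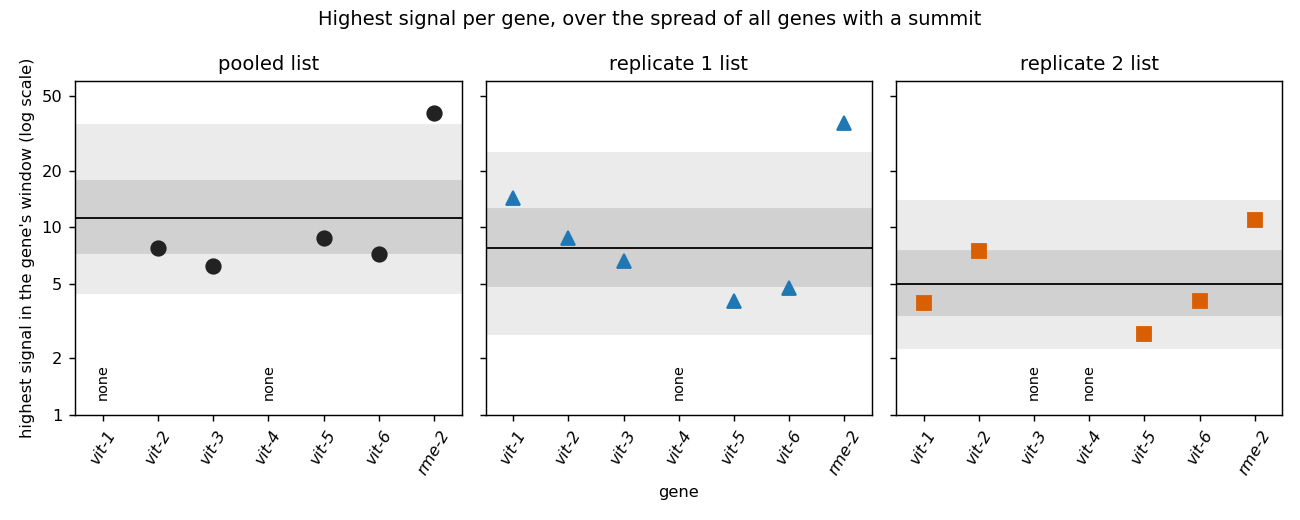
The highest signal in the window of each gene (log axis) is plotted for the pooled list and each replicate; the line is the median over all protein-coding genes with a summit, the dark band spans their 25th to 75th percentile and the light band their 5th to 95th, and "none" marks a gene with no summit. In each panel rme-2 is the highest of the 7, at 40.5, 35.7 and 10.9, and the vit genes with a pooled summit lie below the median of 11.3. The values of vit-1 and vit-2 in replicate 1 and of vit-2 in replicate 2 lie above the median of their panel. Those of vit-1 and vit-2 in replicate 1, and of vit-5 in each panel, are of summits inside a neighbouring gene.

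The genes vit-2 and vit-6 were the ligand genes with summits inside their bodies. In the pooled list vit-2 had 3 in its body, 5.93 at 2583 bp and 7.77 at 4252 bp after the start, both in coding exons, and 5.19 in the 3' UTR, 29 bp before the end. A further summit of 7.40 lay 415 bp past the end, inside the oppositely oriented gene C42D8.9, so it cannot be assigned to vit-2. Replicate 1 gave 5 summits from 2.62 to 8.79, the highest 353 bp past the end and inside C42D8.9, and replicate 2 gave 3.94 at 4372 bp and 7.51 in the 3' UTR, 42 bp before the end. The highest vit-2 summit was thus past the end in replicate 1 and in the 3' UTR in replicate 2, where it ranked 2748 of 27106. At the start, replicate 1 alone had a summit within 500 bp, of 3.54 at 363 bp after it.

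On chromosome IV, vit-6 had low summits spread through its coding exons. The pooled list had 4.30 at 2152 bp, 5.81 at 2665 bp and 7.21 at 4319 bp after the start. The summit near the middle of the gene was found in both replicates, at 4.72 in replicate 1 and 4.03 in replicate 2. That of 7.21, the highest of the 3, had no summit within 150 bp in either replicate. Replicate 1 had 5 summits in all, from 2.09 to 4.72, and replicate 2 had 4, from 2.29 to 4.03. The highest vit-6 summit was in the body in each relaxed list, as was that of rme-2 in replicate 2 but not in the pooled list or replicate 1. The nearest to its end was one of 3.79 in replicate 2, 888 bp past it and inside the gene K07H8.8.

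The other vit genes, all on X, had no summit in their bodies in any of the 3 relaxed lists. For vit-1 the pooled list had no summit in the window, and its nearest lay 39800 bp away. Replicate 1 had 14.3 at 594 bp past the end of vit-1, inside the oppositely oriented gene set-12, and replicate 2 had 3.95 at 440 bp before the start. The replicate 1 summit ranked 1788 of 30000 and had no counterpart in the pooled list or in replicate 2.

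For vit-3 a summit of 6.24 lay 681 bp past the end in the pooled list, with 6.63 at 670 bp in replicate 1 and none in replicate 2. It lies in the gap between vit-3 and vit-4, in no annotated gene. For vit-5 a summit lay past the end in all 3 lists, at 449 bp with 8.77 (pooled), at 433 bp with 4.04 (replicate 1) and at 416 bp with 2.69 (replicate 2). It lies inside unc-78, which encodes an actin-interacting protein and ends toward vit-5, so it cannot be assigned to vit-5. Around vit-4 no list had a summit in the window, and the nearest pooled summit lay 2025 bp away, with 2012 bp for replicate 1 and 1988 bp for replicate 2.

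The bodies without summits included the least unique ones. Of all stretches of 36 bases in a body, the share that occurs once in the genome was 21.1% for vit-3, 17.6% for vit-4 and 42.4% for vit-5. It was 80.7% for vit-1, 80.1% for vit-2, and 100% for vit-6 and rme-2. With stretches of 50 bases the shares were 25.9, 21.4 and 50.9% for vit-3, vit-4 and vit-5, and 87.2 and 86.9% for vit-1 and vit-2. Across the 3 relaxed lists, 42 of the 46 peaks at the 7 genes lay wholly in unique stretches of 36 bases. The least unique of the rest was 79.9% unique. Of the 46, 16 were at rme-2 and 12 at vit-6, whose bodies are wholly unique, so the count does not show whether peaks avoid repeats. With their low unique shares, the values of vit-3, vit-4 and vit-5 are uncertain. The part of repeated sequence in their lack of body summits was not tested. Neither the read length nor the treatment of reads that fit several places is given in the sources used here. The vit-1 and vit-2 bodies are alike in unique share, and vit-2 had summits in its body in each relaxed list while vit-1 had none. Bodies shared 75.4% of the 36-base stretches of vit-3 with vit-4, and 19.3% of those of vit-1 with vit-2.

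**Figure D3:**
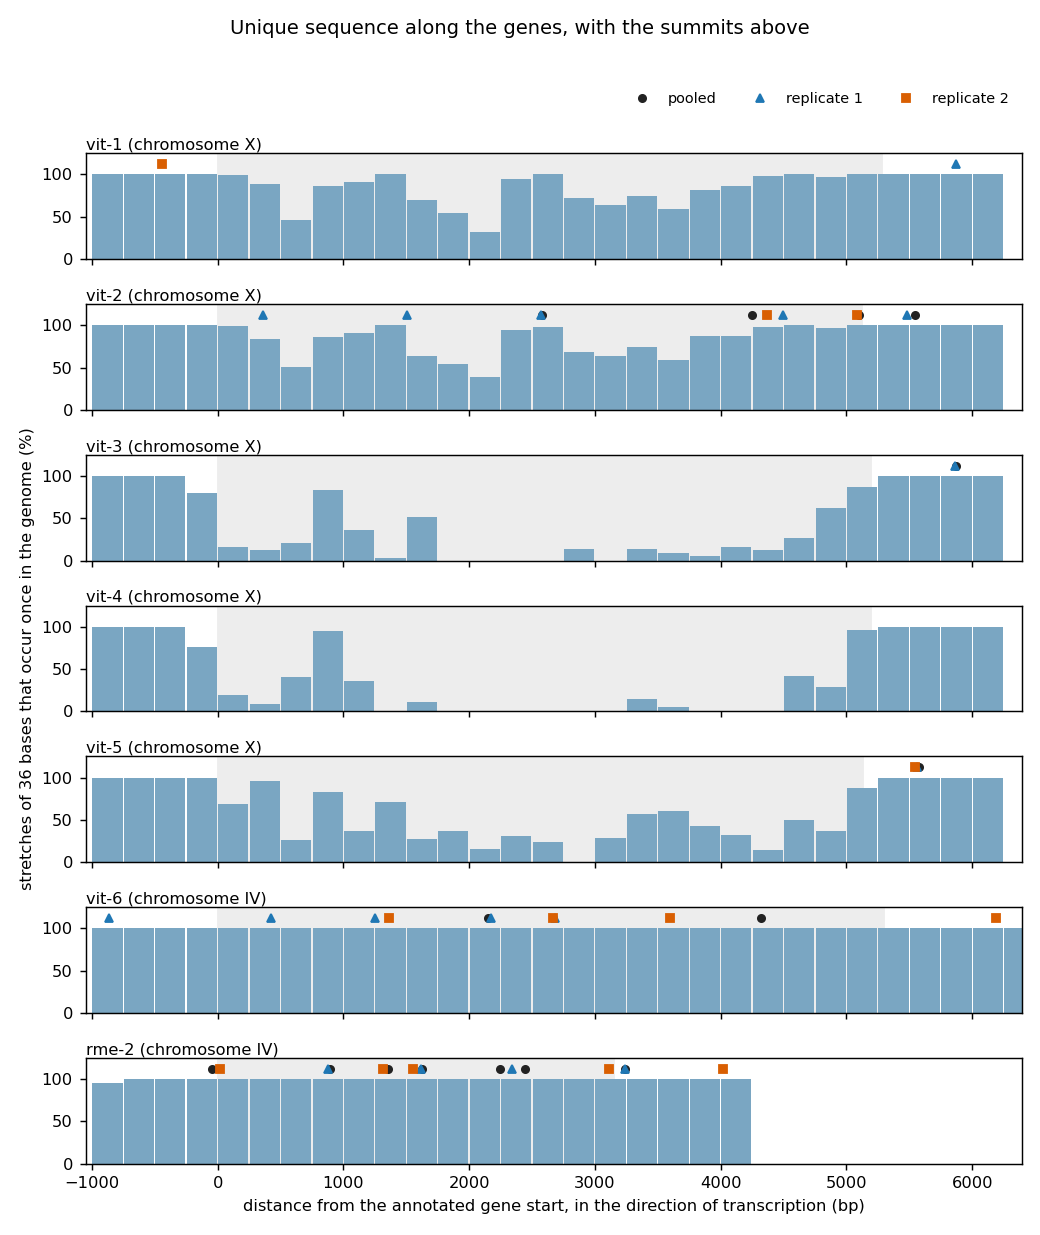
Bars give the share of 36-base stretches that occur once in the genome, in steps of 250 bp from 1000 bp before to 1000 bp past each gene, with the gene body shaded; marks above the bars are the summits of the pooled list (circles), replicate 1 (triangles) and replicate 2 (squares). Most of the vit-3 and vit-4 bodies is repeated sequence with no marks above it, while vit-6 and rme-2 are unique throughout their bodies (100%).

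Set side by side, rme-2 had the higher signal within each list. Its highest summit was 4.62 times the highest at any vit gene in the pooled list (40.5 against 8.77 at vit-5), 2.49 times in replicate 1 (35.7 against 14.3 at vit-1) and 1.45 times in replicate 2 (10.9 against 7.51 at vit-2). In each relaxed list, 2 rme-2 summits exceeded the highest vit summit. Of the 3 summits just named for the vit genes, those of vit-5 and vit-1 lie inside a neighbouring gene. At the gene ends alone the order differed between replicates, since in replicate 2 the summit in the 3' UTR of vit-2 (7.51) was above that of rme-2 (7.14). Within gene bodies, with the flanks left out, the pooled ratio was 1.76. One receptor gene against 6 ligand genes in 2 replicates allows no test of this difference. Tissue and chromosome cannot be told apart for the 5 vit genes on X. Nor can tissue be told apart from the germline expression of tagged AMA-1, if the antibody bound the tagged protein alone. The autosomal vit-6, on the same chromosome as rme-2, had highest signals of 7.21, 4.72 and 4.03 in the pooled list and replicates 1 and 2.

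Over all vit genes the pooled summits were at the level of the list as a whole. Their 9 signals ran from 4.30 to 8.77 with a median of 6.24, and 4 of 9 were above the median of the list. In replicate 1 this was 4 of 13 and in replicate 2 it was 5 of 8. Within 500 bp of a vit start the pooled list had 0 summits, replicate 1 had 2 and replicate 2 had 1. Near the ends, within the same distance, there were 3, 2 and 2. Of these, only the summits in the 3' UTR of vit-2, in the pooled list and replicate 2, lie outside a neighbouring gene. The shares of all genes with a summit this near a start or an end were not counted.

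Other genes resembled the members by their highest signals, measured as the sum of absolute log2 differences over the 3 relaxed lists among 9044 genes with a summit in each. Nearest to rme-2 were ubl-1, which encodes a ubiquitin-like protein fused to a ribosomal protein (distance 0.094, with 40.3, 35.2 and 10.4 in the pooled list and replicates 1 and 2), and then M01F1.8 and lias-1, which share their summits (0.125, with 41.6, 36.2 and 11.5). Nearest to vit-2 was C42C1.8 (0.136), then F46E10.3 (0.159) and tmem-24 (0.170). Nearest to vit-5 were C05E11.7 (0.143), Y48G8AR.2 (0.184) and dhs-14 (0.208), and nearest to vit-6 were K09E9.1 (0.114), ani-3 (0.127) and ptr-11 (0.151). The likeness is coarse, since the pooled list is made of the reads of the other 2. The vit-5 values and the replicate 1 value of vit-2 are of summits inside a neighbouring gene.

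Genes that act on the same pathway were read from lists of known members, against the same shares of 56.5% and 5.25%. These lists were chosen with earlier results of these data known. Of 12 regulators of yolk genes, 9 had a pooled summit and 1 a thresholded one. The latter was at lin-29, a zinc finger factor of the juvenile-to-adult switch, with 78.9 (51.8 in replicate 1 and 26.1 in replicate 2), but this summit lies 124 bp before the end of lin-29 and also just past the end of hmg-12. The homeodomain gene ceh-60, a known activator of vit genes, followed with 21.4 in the pooled list (14.2 and 8.94 in replicates 1 and 2), then the zinc finger gene pqm-1 with 19.4 (4.78 and 8.60). At elt-2, the main intestinal GATA factor, no relaxed list had a summit.

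Of 17 genes of endocytosis that act in yolk uptake, 14 had a pooled summit, and 2 had a thresholded one. The shares over all protein-coding genes are 56.5% and 5.25%. The recycling GTPase gene rab-11.1 had 43.5 in the pooled list, 96 bp before its end (29.4 and 12.4 in replicates 1 and 2). The clathrin heavy chain gene chc-1 had 29.97, 31 bp past its end (24.1 and 14.8). Both were thus near their gene ends, as was the rme-2 peak, but this is not particular to them. The oocyte and eggshell markers with a thresholded summit, apart from puf-11, had their highest within 225 bp of their own end. The share of all thresholded peaks near a gene end was not counted. In pooled signal rab-11.1 and chc-1 were followed by the endosomal GTPase gene rab-7 with 24.1 and sand-1, a factor of endosome maturation, with 20.6. Around rme-4 no relaxed list had a summit. Of dsc-4, which encodes the microsomal triglyceride transfer protein that loads lipid onto vitellogenin, and the receptor relatives lrp-1 and lrp-2, the pooled list had a summit at dsc-4 alone (10.7, with 9.35 and 4.65 in replicates 1 and 2). Each replicate had summits at the receptor relatives too, with 13.7 and 4.42 at lrp-1 and 5.06 and 4.40 at lrp-2 in replicates 1 and 2.

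Markers of the tissues that make the ligands and the receptor were counted against the same shares over all protein-coding genes, 56.5% with a pooled summit and 5.25% with a thresholded one. Of 12 intestine markers, among them elt-2 again, 7 had a pooled summit and 0 a thresholded one, so the pooled count (58.3%) lies near the background and a thresholded count of 0 of 12 is too small to be read against it. The median of the highest signal over those 7 was 7.19. The highest were at the intermediate filament gene ifc-2 (15.1), the aspartic protease gene asp-1 (13.6) and the intestinal actin gene act-5 (12.0). Of 17 oocyte and eggshell markers, 16 had a pooled summit (94.1%) and 8 a thresholded one (47.1%), and the median over those 16 was 27.3. The difference between these lists was not tested. Both lists were chosen with earlier results of these data known, so the counts are a description and not independent support. The highest were at the chondroitin proteoglycan gene cpg-2 (57.6), the eggshell gene cbd-1 (55.0), the RNA-binding protein gene puf-5 (47.0) and spn-4 (42.7). The rme-2 value of 40.5 lies just below that of spn-4 and above the oocyte median of 27.3. The pooled values of vit-2, vit-3, vit-5 and vit-6, from 6.24 to 8.77, lie around the intestine median, and vit-1 and vit-4 had no pooled summit. That of 8.77 is of the summit inside unc-78, which cannot be assigned to vit-5. All 8 thresholded oocyte summits also lie within 500 bp of another gene, and that counted for puf-11 lies 2541 bp before its end and just past the end of htp-2. Of the 12 intestine markers 4 are on X and of the 17 oocyte markers 0 are, so chromosome and tissue move together here too. The germline expression of tagged AMA-1 moves with tissue as well, and the parts of these were not tested.

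**Figure D4:**
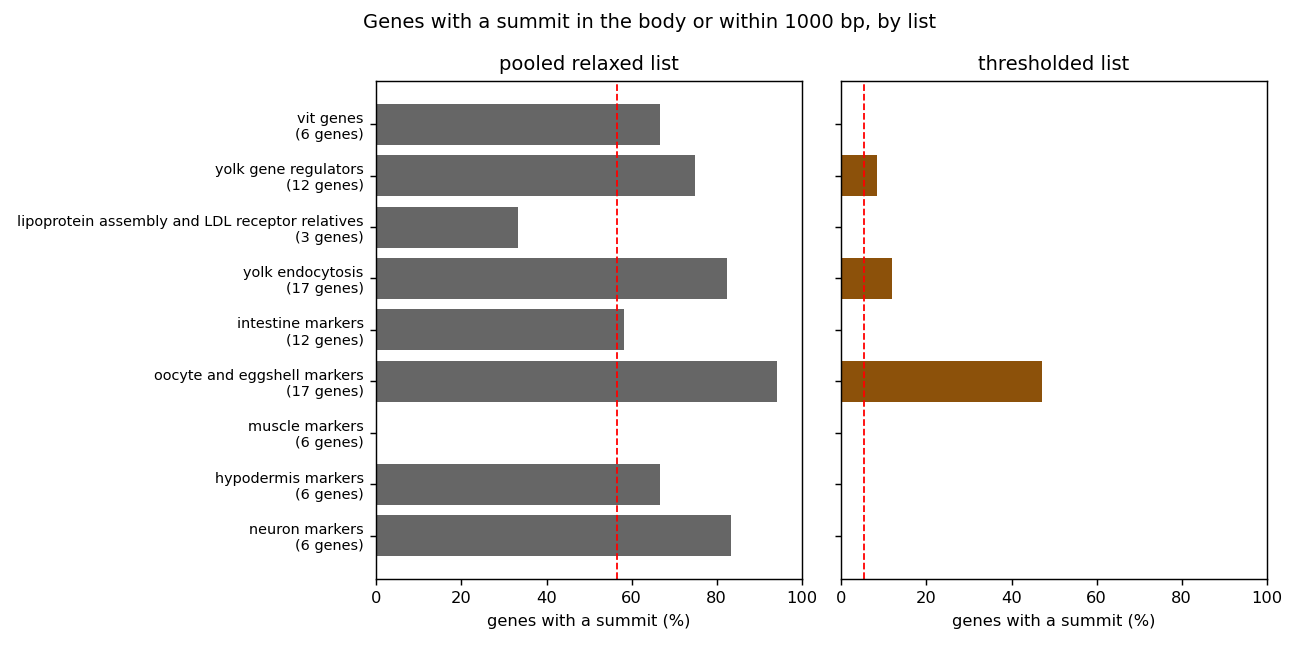
Bars give the percentage of genes in each list with a summit in the body or within 1000 bp, in the pooled relaxed list and in the thresholded list, with the number of genes in the list beside its name; the dashed line is the share over all protein-coding genes, 56.5% and 5.25%. The vit genes and the intestine markers have no thresholded summit (0 of 6 and 0 of 12), and the oocyte and eggshell markers have 8 of 17. Counts of 0 of 6 and 0 of 12 are too small to be read against 5.25%. The lists were chosen with earlier results of these data known.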

How the data were processed

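The members and gene lists were chosen with earlier results of these data known. Relaxed ce11 peak lists had been made by the authors for each replicate and the pooled reads against a control, and a thresholded list from them by the irreproducible discovery rate, per the authors' file lists deposited with each sample. Neither aligner nor peak caller is given in the sources used here. The deposited lists give each peak a signal and a −log10 q-value, and the latter was not used. Relaxed lists hold background, so a summit alone is weak evidence of binding. The ce10 lists were not used.

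Genes were those of Ensembl release 115 for WBcel235, whose chromosome lengths hold all peaks, and sequence was read from the RefSeq genome of that assembly. Summits were assigned to genes in Python 3.11.15 (numpy 2.4.6, pandas 2.3.3), and the assignment was tested on planted summits. A replicate summit within 150 bp was taken as a counterpart. Coding sequences were aligned globally with Biopython 1.88. Protein sequences were not used here. The rule for names took the 7 members, the 3 genes nearest in signal to each member found in the 3 relaxed lists, and up to 4 genes per list by pooled signal. Genes named for having no summit, and puf-11, lrp-1 and lrp-2, were chosen after their values were seen. Alternatives were other windows, assignments, thresholds and single replicates. Positions are 1-based.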

Additional observations from a re-analysis of the deposited data

How the results depend on the processing

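The number of vit genes with a summit, 4 of 6, was from 3 to 5 in 7 of 9 settings. It was 2 with the gene body alone and 0 in the thresholded list. With the gene body alone the highest rme-2 signal was 13.7, its percentile among the pooled peaks 86.5 (99.1 with the flanks) and its ratio to the highest vit signal 1.76. In the thresholded list its percentile was 64.1, and 5.25% of all protein-coding genes had a summit. In single replicates the vit count was from 4 to 5, the rme-2 percentile from 96.4 to 99.6, the ratio from 1.45 to 2.49 and the share of all genes from 61.8 to 65.3%. Counting summits only for their nearest gene gave 3 vit genes and a ratio of 5.22. In no setting that gave a ratio was it below 1. In the thresholded list no ratio exists, since no vit gene has a peak there. No paired analysis was possible because the samples form a single group. Unknown depth and 2 replicates limit all of these values, and repeated sequence in vit-3, vit-4 and vit-5 limits the vit counts.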

Other observations

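Markers of tissues outside the yolk pathway gave a mixed picture in the pooled list, against 56.5% of all protein-coding genes with a summit. Of 6 muscle markers (unc-54, myo-1, myo-2, myo-3, unc-15 and tnt-2), 0 had one, and replicate 2 alone had a summit of 2.16 at tnt-2, a troponin T gene. Of 6 hypodermis markers 4 had a summit, the highest at the GATA factor gene elt-3 (11.6) and at lin-26 (10.3). Of 6 neuron markers 5 had one, the highest at snb-1, which encodes synaptobrevin (25.003, with 19.5 in replicate 1 and 5.30 in replicate 2). None of these 18 genes had a thresholded summit, against 5.25% of all protein-coding genes, and 18 genes are too few to read this against that share.

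The hexamer AATAAA, the common polyadenylation signal, was present in the last 50 bases of vit-1, vit-2, vit-5 and vit-6, from 18 to 22 bases before the annotated end. It was absent from that stretch of vit-3, vit-4 and rme-2, and 48.2% of all nuclear protein-coding genes had it. The thresholded peak past the end of rme-2 thus lies at a gene without this exact hexamer in that stretch, which says nothing about how its transcript is cleaved.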
